A study of Homo sapiens with 6 samples.

Results

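The AP-1 family genes FOS, FOSB, FOSL1, FOSL2, JUN, JUNB, JUND, ATF3 and BATF3 and the zinc finger gene EGR1 were examined in cultured A375 cells, a long-established line from a human melanoma. The genes were chosen by their symbols; all 10 were found among the 57914 genes of the deposited tables, and all 10 were expressed highly enough to be tested. Cells had been stained with Aldefluor, whose product fluoresces in cells with aldehyde dehydrogenase (ALDH) activity, and the 5% with the strongest signal (ALDH_High, 3 libraries) and the 5% with the weakest signal (ALDH_Low, 3 libraries) were collected by FACS. Every cell in both groups had passed through staining and sorting, and no unsorted group was analysed here. The labels do not say whether the libraries of a group came from separate cultures, so p-values measure the spread between these libraries, which may be technical.

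AP-1 is a dimer of basic leucine zipper (bZIP) proteins. The JUN proteins pair with each other or with a FOS or ATF protein, and the dimer binds short DNA elements in the promoters and enhancers of target genes. FOS, FOSB, JUN, JUNB, ATF3 and EGR1 are immediate early genes, transcribed within minutes of growth factor signalling or stress from factors already present in the cell, and their mRNAs are short-lived. FOSL1 and FOSL2 follow more slowly and are sustained by MAP kinase signalling. In melanoma, FOSL1 and JUN are known for high activity in dedifferentiated cells. Enzymatic detachment and sorting of cells are also known to induce the immediate early genes, so each library is given separately.

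The genes lie on 6 chromosomes (GENCODE 44, GRCh38). JUN (chromosome 1, 58776845 to 58784048), JUNB (chromosome 19, 12791486 to 12793315) and JUND (chromosome 19, 18279694 to 18281622) each have a canonical transcript of 1 exon. FOS (chromosome 14, 75278826 to 75282230), FOSB (chromosome 19, 45467995 to 45475179), FOSL1 (chromosome 11, 65892049 to 65900573) and FOSL2 (chromosome 2, 28392448 to 28417317) have 4 exons. ATF3 (chromosome 1, 212565334 to 212620777) and BATF3 (chromosome 1, 212686417 to 212699840) are neighbours 65640 bases apart, and EGR1 lies on chromosome 5 (138465479 to 138469303). FOSB lies within the span of ERCC1 and JUNB within that of HOOK2, both on the opposite strand. Libraries were stranded, but whether the counting used strand is not given in the sources used here, so FOSB and JUNB counts carry that uncertainty. HOOK2 had 136 to 345 counts in a library where JUNB had 1998 to 4562, and ERCC1 had 4585 to 7365 where FOSB had 1415 to 8176.

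The RefSeq table of promoters (GRCh38.p14) held 8 of the 10 genes in 9 windows that run from 250 bases before to 50 after a transcript start. The 250 bases before the start are shown for EGR1, FOS, FOSB and JUN, which were highest in library 1 of both groups, and for JUNB and FOSL2, which passed the test described further on. JUND, also highest in library 1 of both groups, and ATF3, which also passed, are not shown. Capitals mark the CArG box, which serum response factor binds, and TGACG, the half-site of the cyclic AMP response element, on either strand. The windows are, in the order shown, chr5:138465229-138465478 (+), chr14:75278578-75278827 (+), chr19:45467746-45467995 (+), chr1:58784048-58784297 (-), chr19:12791236-12791485 (+) and chr2:28392608-28392857 (+).
EGR1: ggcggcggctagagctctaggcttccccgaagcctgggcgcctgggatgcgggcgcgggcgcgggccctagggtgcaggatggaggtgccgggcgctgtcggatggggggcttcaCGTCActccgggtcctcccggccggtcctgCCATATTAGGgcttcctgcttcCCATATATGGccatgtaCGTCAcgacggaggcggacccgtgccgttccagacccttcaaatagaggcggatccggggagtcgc
FOS: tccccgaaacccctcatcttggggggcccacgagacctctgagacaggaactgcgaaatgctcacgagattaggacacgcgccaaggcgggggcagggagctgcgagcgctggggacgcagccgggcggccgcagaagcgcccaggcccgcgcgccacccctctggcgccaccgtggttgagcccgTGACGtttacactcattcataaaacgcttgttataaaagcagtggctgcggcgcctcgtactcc
FOSB: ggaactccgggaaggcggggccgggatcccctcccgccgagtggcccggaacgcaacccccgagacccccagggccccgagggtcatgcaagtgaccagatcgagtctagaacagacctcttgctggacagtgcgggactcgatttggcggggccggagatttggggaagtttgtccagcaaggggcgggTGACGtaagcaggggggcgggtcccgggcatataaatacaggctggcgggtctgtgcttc
JUN: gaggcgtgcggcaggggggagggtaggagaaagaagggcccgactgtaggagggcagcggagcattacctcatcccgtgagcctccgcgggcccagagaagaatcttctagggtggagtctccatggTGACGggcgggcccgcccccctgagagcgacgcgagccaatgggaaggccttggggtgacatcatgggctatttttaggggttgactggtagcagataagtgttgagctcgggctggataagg
JUNB: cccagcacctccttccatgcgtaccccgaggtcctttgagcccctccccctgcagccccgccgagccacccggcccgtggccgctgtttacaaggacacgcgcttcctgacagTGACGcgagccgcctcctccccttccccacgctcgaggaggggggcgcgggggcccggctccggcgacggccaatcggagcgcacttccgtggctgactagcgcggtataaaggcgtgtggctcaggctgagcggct
FOSL2: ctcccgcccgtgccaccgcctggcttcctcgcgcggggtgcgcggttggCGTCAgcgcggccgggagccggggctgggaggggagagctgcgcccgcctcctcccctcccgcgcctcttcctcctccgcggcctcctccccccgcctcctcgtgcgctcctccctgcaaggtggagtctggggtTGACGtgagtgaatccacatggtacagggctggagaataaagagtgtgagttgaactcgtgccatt
EGR1 held 2 CArG boxes in this window, CCATATTAGG starting 105 bases and CCATATATGG starting 83 bases before the start. No other of the 8 genes held one within its windows, and 1.29% of the 35116 windows in the table did. Bases further than 250 before the start were not searched, so a CArG box there would be missed. TGACG, searched on both strands, was present in 7 of the 8 genes (EGR1, FOS, FOSB, FOSL2, JUN, JUNB and JUND), in 24.6% of all windows, and in neither window of ATF3. The full element TGACGTCA, which contains TGACG, was found in JUND alone of the 8 genes and in 1.85% of windows. TGACTCA, the AP-1 element, was found in FOSL2 alone, after the start, and in 4.95% of windows. GCGTGGGCG, an EGR element, was in none of the 8 and in 0.794% of windows. TATAAA was present in FOS, FOSB, JUNB and ATF3 and in 7.33% of windows. TGACG and TATAAA were added to the search after the values were seen. These are matches of letters and not measured binding sites.

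Messenger RNA of the 10 genes also differed in AU-rich letters, which mark short-lived transcripts. In the 3′ UTR of the canonical transcript, ATTTA occurred 6.2 times per kb in FOS, 4.0 in JUNB, 2.34 in JUN and 0.818 in EGR1, beside a median of 1.72 over 13581 tested genes with a 3′ UTR. It exceeded that median in 6 of the 10. The longer element TTATTTATT was present in FOS and FOSL2, and in 9.77% of those 13581 genes.

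Total counts per library lay between 26692868 and 37830603. ALDH1A3, the gene in the study's title, stood at 682.9, 1149 and 1088 CPM (counts per 1000000 counts, scaled with TMM factors) in the ALDH_High libraries, and at 345, 419.5 and 403.5 CPM in the ALDH_Low libraries, both in the order of library 1, 2 and 3, which is kept throughout (edgeR log2 fold change 1.32, adjusted p 0.000734). Of 11 melanocyte lineage markers, SOX10 had at least 173.8 CPM in every library, while the pigment genes MLANA, TYR and DCT had at most 10 counts in any. Summed without TMM scaling, those markers reached 683 to 855 CPM in ALDH_High and 228 to 247 CPM in ALDH_Low, mostly SOX10. SOX10, S100A1 (log2 fold change 4.75) and S100B (4.28) were higher and MITF lower in ALDH_High, while PAX3, GPR143 and PMEL did not pass. Leukocyte markers summed to 3.24 to 7.27 CPM in ALDH_High and 2.96 to 3.83 CPM in ALDH_Low, with 7 of 11, PTPRC among them, at 10 counts or fewer throughout and 3 at 0 in every library. Of those tested, LYZ (log2 fold change 1.65) was higher and CD14 (-1.96) lower in ALDH_High, and CSF1R did not pass. Fibroblast markers summed to 19.0 to 20.8 CPM in ALDH_High and 20.3 to 25.75 CPM in ALDH_Low. PDGFRB (-0.80) was lower in ALDH_High, and no other fibroblast marker passed. Keratinocyte and epithelial markers summed to 429 to 743 CPM in ALDH_High and 1213 to 1795 CPM in ALDH_Low, mostly KRT18, with EPCAM, KRT1 and KRT19 at 10 counts or fewer. KRT18, KRT8 and KRT5 were lower in ALDH_High. KRT14 (log2 fold change 0.58) and KRT10 (-0.11) did not pass, and the other markers of this list were too low to test. The part of these marker differences in the results was not tested. In sorted bulk RNA, fewer cells with a transcript and less of it per cell cannot be told apart.

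FOSL1 was the most abundant AP-1 mRNA in all 6 libraries. On the TPM scale, which corrects for transcript length, it stood at 478, 564 and 545 TPM in ALDH_High and 548, 609 and 567 TPM in ALDH_Low. It made up 45.4%, 62.3% and 61.0% of the summed TPM of the 9 AP-1 genes in ALDH_High and 34.9%, 49.3% and 48.6% in ALDH_Low. The share was lowest in library 1 of each group, where FOSL1 itself was lowest and FOS, FOSB, JUN and JUND were highest. JUN and JUND took the next places in every library, at 103 ± 51.7 and 121 ± 24.1 TPM in ALDH_High and 181 ± 86.1 and 174 ± 74.1 TPM in ALDH_Low (mean ± SD, n = 3), and these 2 did not differ beyond their spread. FOS (69.1 ± 36.6 and 115 ± 23.3 TPM) and JUNB (64.7 ± 14.0 and 109 ± 7.81 TPM) came next on average, together with EGR1 (62.0 ± 50.3 and 110 ± 63.6 TPM). FOSB (25.3 ± 11.7 and 51.5 ± 31.5 TPM), ATF3 (16.8 ± 3.82 and 71.7 ± 36.3 TPM) and FOSL2 (13.9 ± 3.22 and 36.5 ± 3.64 TPM) were lower, and BATF3 was the lowest in every library (6.83 ± 2.53 and 10.4 ± 2.53 TPM). Among FOS, JUNB and EGR1, and between FOSB and ATF3, neighbours did not differ beyond their spread, and ATF3 ranked above JUNB in ALDH_Low library 1. Summed over the 9 AP-1 genes, abundance was 1053, 905 and 893 TPM in ALDH_High and 1569, 1236 and 1166 TPM in ALDH_Low. Without FOSL1 the sums were 574, 341 and 349 TPM against 1021, 627 and 599.6 TPM.

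**Figure D1:**
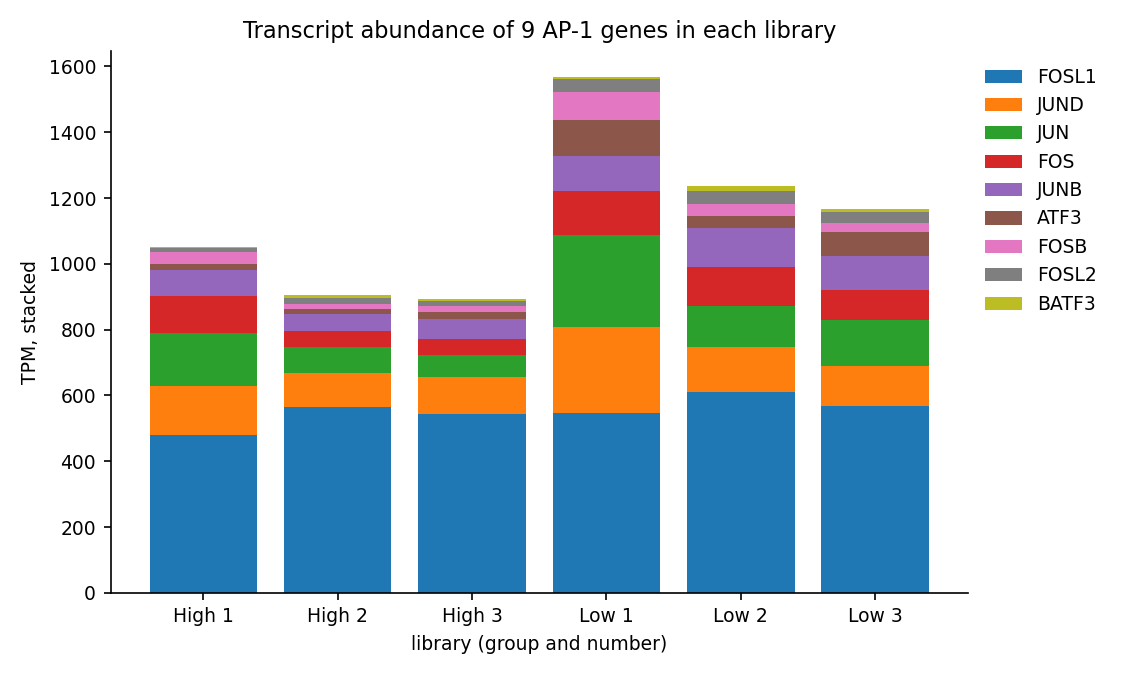
TPM of 9 AP-1 genes stacked for each library (horizontal axis: group and library number; vertical axis: TPM). FOSL1 forms the widest band in all 6 bars, and the bar of ALDH_Low library 1, at 1569 TPM, is the tallest.

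To ask how AP-1 and EGR1 mRNA differed between the extremes of ALDH activity, each gene was compared between the groups. All 10 had a lower mean in ALDH_High, and their median log2 fold change was -0.80 beside -0.013 over the 17047 genes tested. FOSL2, JUNB and ATF3 passed an adjusted p of 0.05 and fell, 3 of 10, where 20.6% of all genes tested passed in either direction and 9.83% were lower in ALDH_High (edgeR quasi-likelihood, Benjamini-Hochberg over all genes). None of the 10 was higher, also at an unadjusted p under 0.05, with DESeq2, and with limma on TPM. At an unadjusted p under 0.05, 6 were lower, as were 2731 of the 17047 genes. With no filter on low counts, 8 of the 10 passed and were lower, beside 6.02% of all genes in that fit. There the SE was 0.134 for EGR1 and 0.132 for FOSL1, beside 0.549 and 0.101 with the filter. The p-values without the filter thus hardly follow the spread of each gene. With the replicate number as a block, 9 passed and were lower, FOSL1 being the exception, beside 10.6% of all genes. Each library correlated best with its own number in the other group, but no label says that the numbers pair the libraries. Whether 3 or 9 genes pass thus depends on a pairing that the labels do not settle. The groups did not overlap for these 3 and for FOSL1, while 19.1% of all genes tested were lower without overlap. For 3 against 3 libraries an exact two-sided permutation test cannot go below p = 0.1, and it gave 0.1 for these 4 genes.

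**Figure D2:**
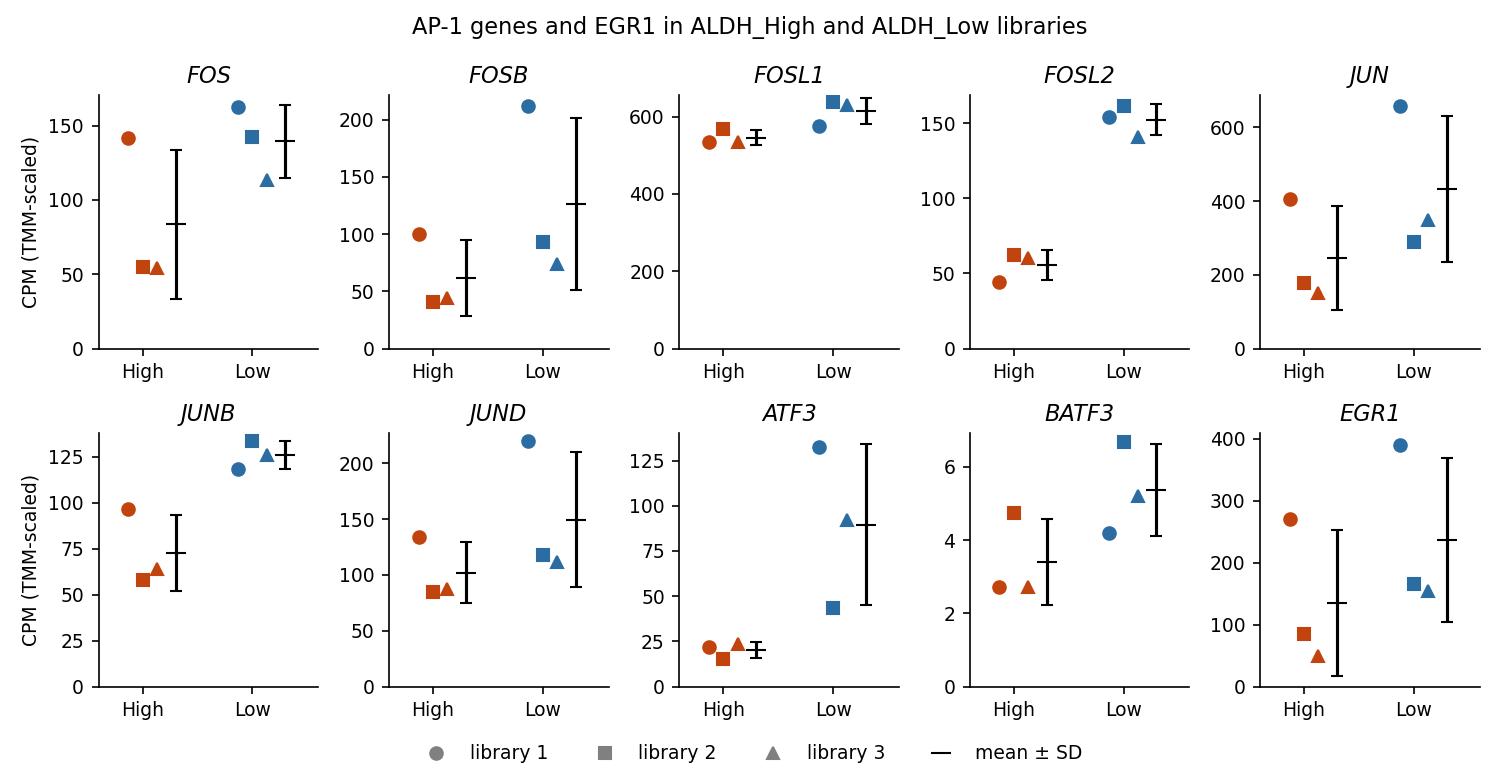
TMM-scaled CPM of each gene (vertical axis from 0) in the 3 ALDH_High and 3 ALDH_Low libraries; the marker shape gives the library number and the bar the mean ± SD. FOSL2, JUNB, ATF3 and FOSL1 show no overlap between groups, and in EGR1, FOS, FOSB, JUN and JUND library 1, the circle, is the highest of both groups.

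ATF3, a stress-induced partner of JUN proteins that can also repress as a homodimer, showed the largest difference of the 10. It had 22.2, 15.1 and 23.5 CPM in ALDH_High and 133, 43.7 and 92.3 CPM in ALDH_Low. The ALDH_Low libraries spanned a 3.04-fold range and still all lay above ALDH_High. The log2 fold change of ATF3 was -2.15 (SE 0.34, edgeR adjusted p 0.00161), a level 4.42-fold lower in ALDH_High. It missed the threshold in 1 alternative, limma on log2(TPM + 1) with no TPM filter (-1.92, adjusted p 0.0518).

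BATF3, the neighbour of ATF3 and an AP-1 factor best known for dendritic cell development, was low throughout. Its values were 2.72, 4.75 and 2.73 CPM in ALDH_High and 4.20, 6.69 and 5.21 CPM in ALDH_Low. ALDH_High library 2 lay above ALDH_Low library 1, so the groups overlapped. BATF3 did not pass (log2 fold change -0.65, SE 0.29, edgeR adjusted p 0.147).

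Among the FOS proteins, which cannot pair with each other and need a JUN partner, FOSL2 had the smallest p. It stood at 44.3, 62.3 and 60.2 CPM in ALDH_High and 154, 161 and 141 CPM in ALDH_Low. Both groups were tight and far apart, and library 1 was not the highest of either. Its log2 fold change was -1.45 (SE 0.14, edgeR adjusted p 9.11e-05), and it passed in all 16 alternatives computed for it. FOSL1, the main FOS-family mRNA of these cells, had 533, 568 and 536 CPM in ALDH_High and 575, 638 and 631 CPM in ALDH_Low. Its groups did not overlap in CPM but did overlap in TPM, and the difference was small (log2 fold change -0.17, SE 0.10, edgeR adjusted p 0.280). FOS had 142, 54.7 and 54.1 CPM in ALDH_High and 162, 142 and 114 CPM in ALDH_Low. ALDH_High library 1 lay among the ALDH_Low values, and the other 2 ALDH_High libraries lay below all of them. The log2 fold change of FOS was -0.74 (SE 0.33, edgeR adjusted p 0.152). FOSB had 99.9, 41.0 and 44.3 CPM in ALDH_High and 212, 93.0 and 73.5 CPM in ALDH_Low, again with ALDH_High library 1 inside the ALDH_Low range. Its log2 fold change was -1.04 (SE 0.42, edgeR adjusted p 0.115).

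Among the JUN proteins, JUNB, which often restrains JUN, fell. It had 96.3, 57.8 and 63.8 CPM in ALDH_High and 118, 133.5 and 126 CPM in ALDH_Low, without overlap (log2 fold change -0.79, SE 0.18, edgeR adjusted p 0.0104). JUN, the strongest activator of the family, had 406, 178 and 151 CPM in ALDH_High and 659, 290.25 and 347 CPM in ALDH_Low. JUND, which is expressed more steadily in most cells, had 134, 85.2 and 87.4 CPM in ALDH_High and 219.5, 118 and 112 CPM in ALDH_Low. In both, library 1 was the highest of its group and the groups overlapped through ALDH_High library 1. The log2 fold change was -0.82 for JUN (SE 0.38, edgeR adjusted p 0.173) and -0.55 for JUND (SE 0.26, edgeR adjusted p 0.182).

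EGR1, a zinc finger factor induced by the same signals as FOS, varied most of the 10 among the ALDH_High libraries. It had 270.1, 85.6 and 50.1 CPM in ALDH_High, a 5.39-fold range, and 389.9, 166 and 154 CPM in ALDH_Low. Library 1 was the highest of both groups, and ALDH_High library 1 exceeded ALDH_Low libraries 2 and 3. EGR1 had a log2 fold change of -0.81 with an SE of 0.55 (edgeR adjusted p 0.354), and it was -0.23 without ALDH_Low library 1.

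Library 1 stood apart for 5 of the 10 genes. EGR1, FOS, FOSB, JUN and JUND were highest in library 1 of both groups, beside 16.5% of all genes tested. Relative to the mean of libraries 2 and 3 of its group, library 1 held 3.98 times as much EGR1 in ALDH_High and 2.44 times in ALDH_Low. The ratios were 2.34 and 2.55 for FOSB, 2.48 and 2.07 for JUN, and 1.55 and 1.92 for JUND. FOS was 2.60 times as high in ALDH_High library 1 but 1.27 times in ALDH_Low. FOSL1 (0.966 and 0.907), BATF3 (0.728 and 0.706) and FOSL2 (0.723 and 1.02) showed no such excess. JUNB was high in library 1 of ALDH_High only (1.58 and 0.912), and ATF3 mainly in library 1 of ALDH_Low (1.15 and 1.95). A ratio above 1.5 in both groups was reached by 4 of the 10 genes and by 2.35% of the 16920 genes with a ratio in both groups. ALDH_High library 1 also differed from its group across genes in general. Its chi-square per degree of freedom, larger where counts are less alike, was 40.6 and 50.1 against libraries 2 and 3, beside 12.1 between those. In ALDH_Low these values were 25.6 and 25.2 for library 1, beside 20.2. The labels give no sorting order, duration or date for a library, and what sets library 1 apart was not tested.

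Heat shock genes, which handling can also induce, were examined beside this. HSPA1A, an inducible HSP70 gene, had 1264, 507 and 524 CPM in ALDH_High and 1818, 721 and 1271 CPM in ALDH_Low, 2.45 and 1.82 times the mean of the other libraries in library 1. Its near-identical copy HSPA1B shares reads with it, so the split between the pair is uncertain. Of the 15 heat shock genes 3 exceeded 1.5 in both groups (HSPA1A, HSPA1B and DNAJB1), while HSPA8 and HSP90AA1 lay below 1 in both. None of the 15 passed the test between groups in either direction with edgeR, with DESeq2, or with limma on TPM, and 1 was higher at an unadjusted p under 0.05. With edgeR 9.83% of all genes were lower and 10.8% higher, so 0 in a list of 15 says little. Without ALDH_High library 1 the counts were 1 higher and 3 lower, beside 11.5% of all genes lower.

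**Figure D3:**
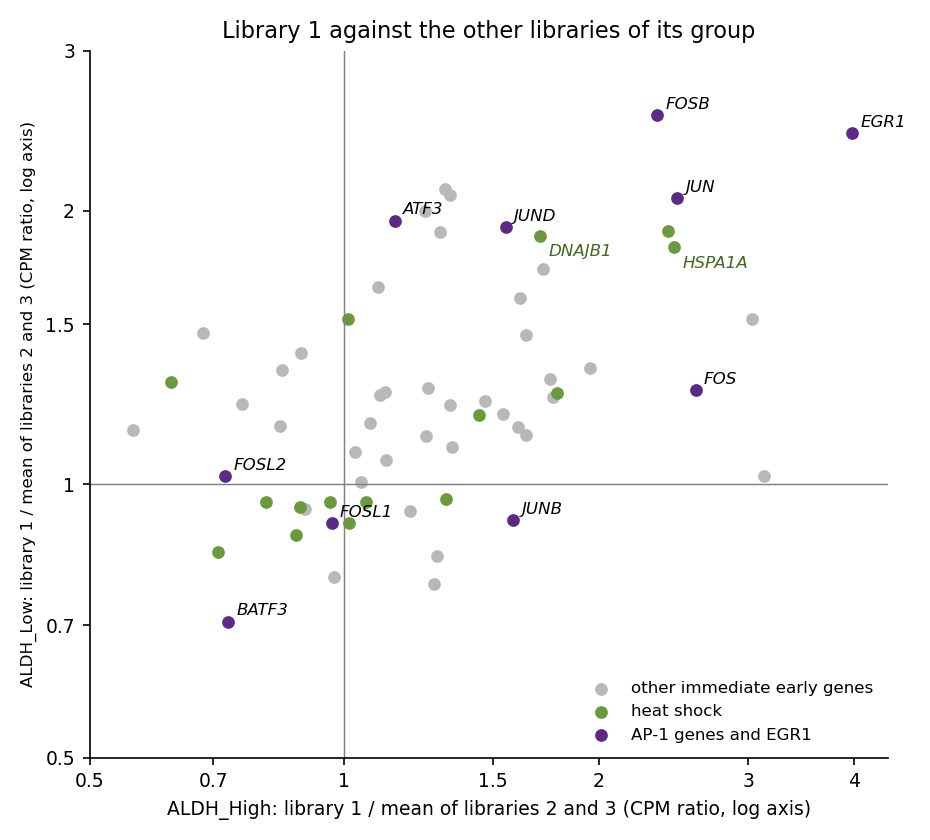
CPM in library 1 divided by the mean of libraries 2 and 3, in ALDH_High (horizontal) and ALDH_Low (vertical), both on log axes, for the AP-1 genes and EGR1, the heat shock genes and other immediate early genes. EGR1, FOSB, JUN and JUND lie above 1.5 on both axes together with HSPA1A, HSPA1B, DNAJB1 and 3 other immediate early genes, while BATF3 and FOSL1 lie below 1 on both.

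With ALDH_High library 1 left out, the groups did not overlap for 9 of the 10 genes, BATF3 being the exception, where 28.2% of all genes tested were lower without overlap. This was fixed in advance for all 9. FOSL1, FOSL2, JUNB and ATF3 had no overlap to begin with, and leaving out a library cannot create one. For FOS, FOSB, JUN, JUND and EGR1 the groups overlapped only through the library left out. In the fit without ALDH_High library 1, 7 of the 10 genes passed and were lower, against 11.5% of all genes. For FOS, FOSB, JUN, JUND and EGR1 the library left out was the highest of ALDH_High. ALDH_Low library 1, also the highest of its group for those 5 genes, stayed in that fit. A more negative log2 fold change for them was thus fixed by the choice of library, and their p-values there add no support. The log2 fold changes were -1.34 for FOS (edgeR adjusted p 0.000404), -1.55 for FOSB (0.0219), -1.38 for JUN (0.0128) and -1.79 for EGR1 (0.0144). With library 1 of both groups left out, a comparison of 2 against 2 libraries chosen after the values were seen, 8 of 10 passed and were lower, against 10.9% of all genes. There the log2 fold changes were -1.22 for FOS, -0.95 for FOSB, -0.94 for JUN, -0.39 for JUND and -1.22 for EGR1, with edgeR adjusted p from 0.000755 to 0.0314. FOSL2 (-1.29), JUNB (-1.08) and ATF3 (-1.80) passed here too, and FOSL1 (-0.18, edgeR adjusted p 0.162) and BATF3 (-0.66, 0.157) did not. Without ALDH_Low library 1 alone, 3 genes passed, and the log2 fold changes of FOSB, JUN and JUND were -0.42, -0.37 and -0.15.

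**Figure D4:**
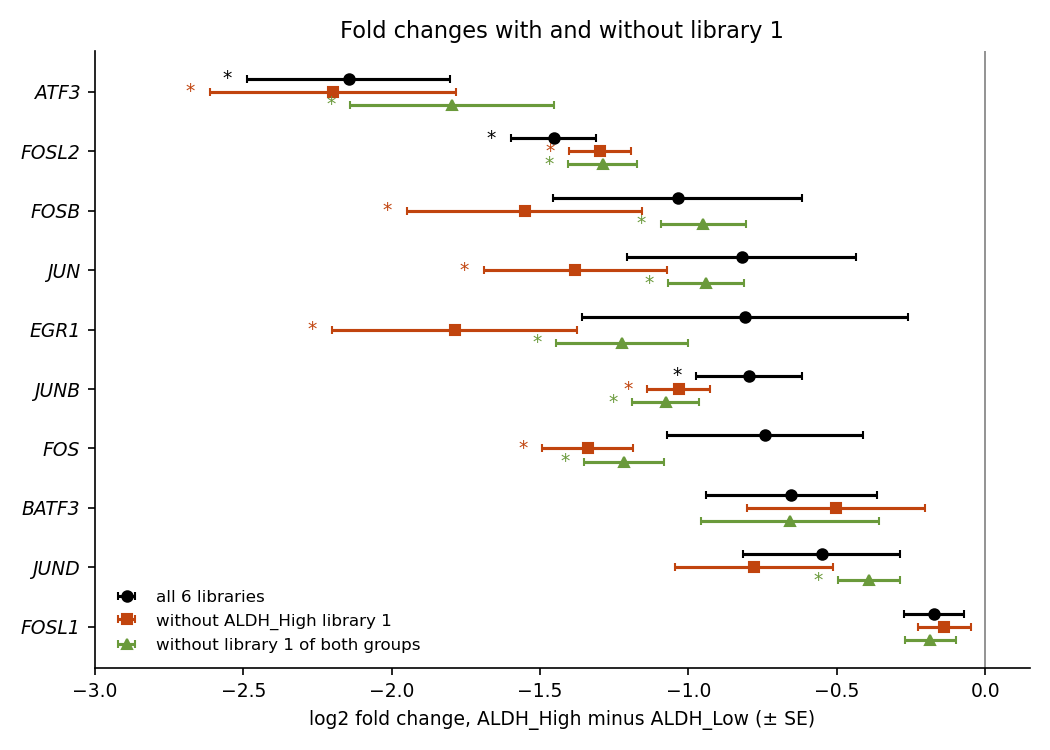
Log2 fold change (ALDH_High minus ALDH_Low) ± SE of each gene in the fit of all 6 libraries, without ALDH_High library 1, and without library 1 of both groups; an asterisk marks an edgeR adjusted p below 0.05. All points lie below 0, and the number with an asterisk is 3, 7 and 8 in these fits. For FOS, FOSB, JUN, JUND and EGR1, ALDH_High library 1 was the highest of its group. Asterisks that these genes gain without it follow from that choice.

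The authors' deposited table gives log2 coefficients under DESeq2's column names, with the high and the low group each set against a group named 1A3 that was not analysed here. In the authors' deposited table the high and low coefficients are -0.90 and 1.22 for ATF3, 0.14 and 1.58 for FOSL2, and -0.49 and 0.29 for JUNB. The coefficients in the authors' deposited table for EGR1 are 1.30 and 2.08, for FOS 0.56 and 1.27, and for JUN 0.72 and 1.51. The high coefficient is the lower of the pair for all 10 genes in the authors' deposited table.

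Immediate early genes outside the family were compared in the same fit. Of 39 listed, 38 were tested, 18 were lower and 1 was higher in ALDH_High, which is 47.4% lower beside 9.83% of all genes, and the median log2 fold change was -0.49. CITED2, a CBP/p300-binding regulator, fell from 53.1 to 108 CPM across the ALDH_Low libraries to 13.5 to 19.5 CPM in ALDH_High (log2 fold change -2.17, edgeR adjusted p 0.000282). GADD45B, a stress-response gene, had a log2 fold change of -1.19 (edgeR adjusted p 0.000253), and ARC, known from neurons, of -1.78 (0.000419). MYC (-0.86, edgeR adjusted p 0.00374) and DUSP1 (-1.42, 0.00310), a phosphatase that inactivates MAP kinases, were lower as well. The gene that was higher was EGR3, a relative of EGR1, with 20.1, 16.8 and 19.3 CPM in ALDH_High and 7.05, 4.45 and 6.72 CPM in ALDH_Low (log2 fold change 1.62, edgeR adjusted p 0.000314). IER2 (-0.49, edgeR adjusted p 0.0958), NR4A1 (0.74, 0.155) and SRF, the factor that binds the CArG box (-0.072, 0.711), did not pass. Library 1 was highest in both groups for 23 of these 38 genes, beside 16.5% of all genes tested. Without library 1 of both groups 22 of the list were lower, beside 10.9% of all genes, and 3 were higher.

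Of 25 other bZIP genes tested, 7 were lower (28.0%, beside 9.83% of all genes) and 2 higher (8.0%, beside 10.8%). Their median log2 fold change was 0.0045. Without ALDH_Low library 3, 4 were lower. The number higher was 1 without ALDH_High library 2 or 3, or without ALDH_Low library 2 or 3. MAF, a large Maf factor, rose from 0.208 to 2.44 CPM in ALDH_Low to 31.2 to 34.1 CPM in ALDH_High (log2 fold change 5.11, edgeR adjusted p 0.000253). BACH1, a repressor of haem oxygenase, rose as well (0.63, edgeR adjusted p 0.0352). BATF2 (-1.78, edgeR adjusted p 0.000134) and the small Maf protein MAFK (-0.71, 0.00498) fell.

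Among 27 signalling genes and regulators upstream of AP-1, 4 were higher and 0 lower with edgeR, which is 14.8% higher beside 10.8% of all genes. At an unadjusted p under 0.05, 5 were higher and 2 lower, beside 2777 and 2731 of the 17047 genes, and DESeq2 and limma on TPM found 0 lower. Without ALDH_High library 1 there were 5 higher and 1 lower, and without ALDH_Low library 2 or 3 there were 2 or 1 higher. RPS6KA3, which encodes the kinase RSK2, rose (log2 fold change 1.20, edgeR adjusted p 0.000174), as did MAPK7, which encodes ERK5 (0.56, 0.0125), and RPS6KA5, which encodes MSK1 (0.72, 0.0160). Genes known to report MAP kinase output were higher in 8 and lower in 2 of 15, beside 10.8% of all genes higher, with a median log2 fold change of 0.55. SPRY4 (2.74, edgeR adjusted p 4.29e-06) and SPRY2 (1.43, 3.94e-05), feedback inhibitors of receptor signalling, and IL1RAP (1.88, 9.78e-05) rose. The receptor gene EPHA2 (-0.72, edgeR adjusted p 0.000900) and the phosphatase gene DUSP5 (-1.29, 0.00232) fell. Without ALDH_High library 1 this list had 7 higher and 4 lower. The number higher was 5 without ALDH_High library 3, 4 without ALDH_Low library 2 and 3 without ALDH_Low library 3.

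Genes described elsewhere as AP-1 targets were lower in 11 and higher in 3 of 28 tested, with a median log2 fold change of -0.40. That is 39.3% lower, beside 9.83% of all genes, and 10.7% higher, close to the 10.8% of all genes. CCL2, a chemokine, had 1.42, 1.56 and 1.64 CPM in ALDH_High and 10.2, 9.0 and 14.2 CPM in ALDH_Low (log2 fold change -2.85, edgeR adjusted p 3.47e-05). HBEGF, an EGF receptor ligand, also fell (-1.37, edgeR adjusted p 4.41e-05). In the other direction TNC, which encodes the matrix protein tenascin-C, had 1999, 1673 and 1615 CPM in ALDH_High and 345, 348 and 403 CPM in ALDH_Low (2.27, edgeR adjusted p 4.69e-06). NT5E (0.62, edgeR adjusted p 0.00380) and TIMP1 (0.63, 0.0480) rose as well. MMP1, a collagenase gene and a classical AP-1 target, did not pass (-1.05, edgeR adjusted p 0.130). Partners and reported targets of EGR1 were 4 lower and 3 higher of 15, beside 9.83% and 10.8% of all genes, with a median of -0.043, and without ALDH_High library 1 these counts were 6 and 5. Some genes, EGR3 among them, stand in more than 1 list. FN1 (2.51, edgeR adjusted p 3.98e-06), EGR3 and NAB2, a corepressor that EGR1 itself induces (1.01, 0.000588), were higher. F3 (-2.22, edgeR adjusted p 0.000879) and PDGFA (-1.29, 0.00128) were lower.

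**Figure D5:**
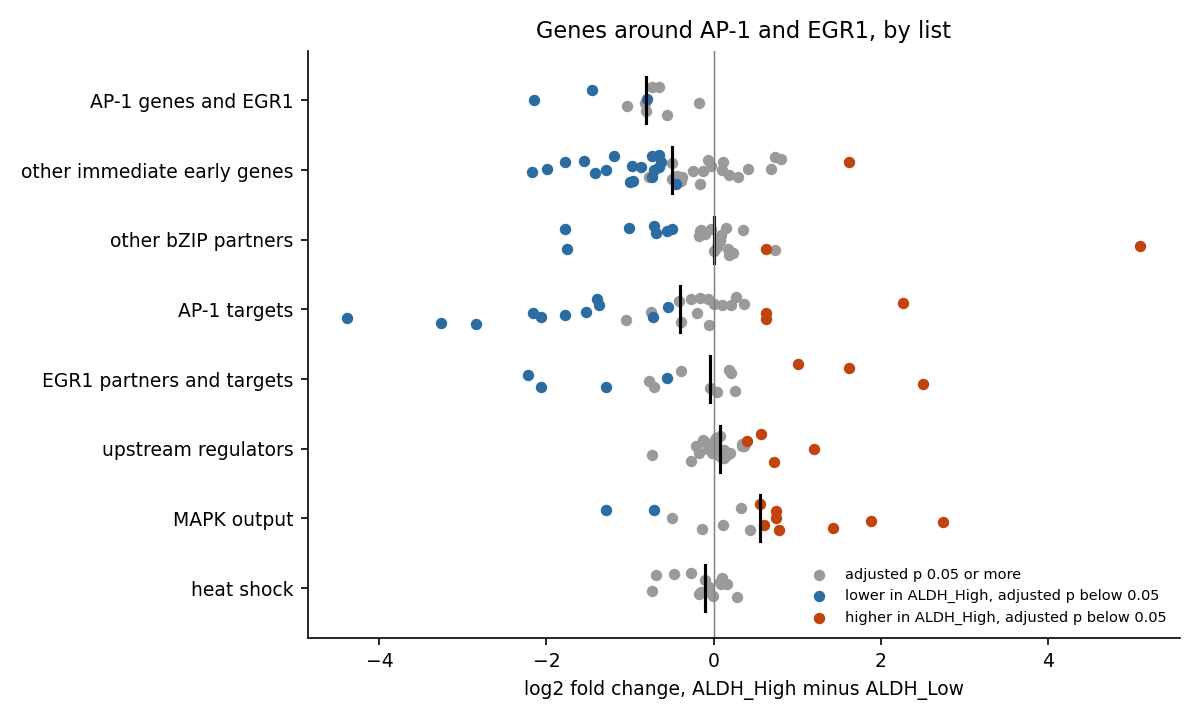
Log2 fold change (ALDH_High minus ALDH_Low) of each tested gene, by list; colour marks an edgeR adjusted p below 0.05 and its direction, and the black line is the median of the list. The median is -0.49 for other immediate early genes and 0.55 for MAP kinase output. The other bZIP genes (labelled other bZIP partners) and the regulators centre near 0.

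Likeness between genes was measured as the root mean square difference of log2 CPM, each gene centred on its mean over the 6 libraries, and is a description only. Among the AP-1 genes and EGR1 above 5 CPM, FOSB and JUN were closest (0.24), followed by FOS and JUN (0.30) and FOS and JUNB (0.30). Of 11013 other named genes averaging 5 CPM or more, the 5 closest to FOS were SDSL (0.12), NRP1 (0.14), GRAMD1B (0.18), DYSF (0.19) and ABLIM3 (0.20). The closest to JUN were GCHFR (0.12), MMP1 (0.12), HSPA1B (0.17), HSPA1A (0.19) and SPP1 (0.24). For EGR1 they were HIST2H2AA3 (0.31), MMP1 (0.32), GCHFR (0.37), SPP1 (0.38) and MT-RNR2 (0.43), the mitochondrial 16S ribosomal RNA. Among the closest to ATF3 were CITED2 (0.29), C3 (0.36), ID3 (0.40) and TFPI (0.40). FOSL1, which hardly varied, was closest to MCM4 (0.019), KAT8 (0.021), TRIP6 (0.026), HNRNPF (0.034) and ABHD11 (0.037), which hardly varied either.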

How the data were processed

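RNA was sequenced from sorted A375 cells with TruSeq stranded mRNA libraries, per the labels' protocols. The submitters' processing notes name FastQC 0.11.3, STAR 2.5.1b, HTSeq 0.6.1, DESeq2 and GRCh38, without roles; the annotation release is not given in the sources used here. The authors deposited whole-number counts, read here as rounded estimated counts, since 133 to 177 genes per library have a count of 0 beside a TPM above 0. The deposited TPM values sum to the same total in each library. The deposited TPM table also holds log2 coefficients, whose column names per the file headers are those that DESeq2 writes. Rows with an Ensembl ID but no symbol held at most 0.0267% of a library's counts and stayed in. Libraries of a group differed beyond sampling noise (chi-square per degree of freedom 12.1 to 50.1).

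Counts were filtered with filterByExpr (17047 genes), scaled with TMM factors and tested two-sided with edgeR 4.0.16 (glmQLFit, glmQLFTest); adjusted p-values are Benjamini-Hochberg over all genes tested, with a threshold of 0.05. SE was taken as log2 fold change over the root of the F statistic. Alternatives used limma 3.58.1 and DESeq2 1.42.0. The scripts were tested on simulated data. The 10 genes and all lists were chosen with earlier results of these data known. Named from each list are the 3 genes with the smallest p past the threshold in each direction, 7 genes fixed by name, and the 5 genes most like FOS, FOSL1, JUN, ATF3 and EGR1; MMP1 and the heat shock and marker genes named beside these were picked with their values in view. A few genes that the rule names are not reported here. A comparison of protein sequences was planned and not made, as none was used here. The labels mention no molecular identifiers, so depths speak to counting error only.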

Additional observations from a re-analysis of the deposited data

How the results depend on the processing

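Over the alternatives computed for each gene, no log2 fold change of the 10 genes changed sign, FOSL2 and JUNB passed at 0.05 in each, FOSL1 passed in none, and ATF3 missed the threshold once (-1.92, limma on log2(TPM + 1) with no TPM filter). Without a filter on low counts 8 of the 10 genes passed, all lower, against 6.02% of 34665 genes. FOS (-0.73), FOSB (-1.03), JUN (-0.81), JUND (-0.54) and EGR1 (-0.80) were added, and the cause was not tested. The SE in that fit was nearly the same for EGR1 (0.134), JUN (0.133) and FOSL1 (0.132), so its p-values hardly follow the spread of each gene. Leaving out 1 library gave from 3 to 7 genes past the threshold, all lower, with log2 fold changes from -1.34 to -0.49 for FOS, -1.55 to -0.42 for FOSB, -1.38 to -0.37 for JUN and -1.79 to -0.23 for EGR1. The 7 came without ALDH_High library 1, the highest ALDH_High library for FOS, FOSB, JUN and EGR1. Without library 1 of both groups 8 passed, with FOS at -1.22, FOSB at -0.95, JUN at -0.94, JUND at -0.39 and EGR1 at -1.22. An adjusted p below 0.01 left 2 of the 10 genes, FOSL2 and ATF3, and JUNB missed it at 0.0104. limma with no TPM filter left FOSL2 and JUNB.

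With the replicate number as a block, 9 of the 10 genes passed, all lower, against 10.6% of all genes: FOS (-0.88), FOSB (-1.0), JUN (-0.87), JUND (-0.51), BATF3 (-0.68) and EGR1 (-1.03) joined the 3. The correlation between same-numbered libraries, after each group's mean was removed, was 0.150, 0.0760 and 0.108 on edgeR's log2 CPM scale (0.194, 0.132 and 0.106 on log2(CPM + 0.5)). On both scales each library correlated best with its own number, a hint from the data and not from the design. The value of 0.0760 alone missed the minimum set for this check. No label says that the numbers pair the libraries, and they were not taken as pairs.

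Of all genes, 3513 passed. The count was 1930 (1060 higher, 870 lower) at an adjusted p below 0.01 and 2006 (1155 and 851) in limma on log2(TPM + 1) with no TPM filter; limma on TPM with a mean of at least 1 found 1047 lower (pseudocount 1) or 1051 (pseudocount 0.1), and there were 1073 to 2049 lower when 1 library was left out, the fewest without ALDH_High library 2. In the window before the start only, TGACTCA was in 0 of the 8 genes. BATF3 had the fewest counts of the 10 genes, 69 to 200 in a library.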
